A study of Mus musculus with 27 samples.

Results

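De novo lipogenesis is the synthesis of fatty acids from sugar carbon, and it was described here through 10 genes: 9 that encode enzymes, a carrier and associated proteins of the route, and Srebf1, which encodes a transcription factor that drives it. Where a gene had several probe sets, the values are those of the brightest on average. All 10 had a value among 18820 genes with a value, and all 10 were among the 13603 genes tested after a filter on low intensity (above 20 on at least 5 arrays). The filter was met in every diet, so it removed no member.

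In this route, citrate leaves the mitochondria and is cleaved to acetyl-CoA in the cytosol, acetyl-CoA carboxylase turns acetyl-CoA into malonyl-CoA, and fatty acid synthase joins malonyl-CoA units into palmitate with reducing power from NADPH. In the liver the route is known to run high after a carbohydrate meal and low in fasting. Insulin acts on it largely through SREBP-1c, a product of Srebf1 that is made as an inactive membrane precursor and has to be cut free before it enters the nucleus, while glucose acts through ChREBP, the product of Mlxipl. The amount of Srebf1 mRNA and the amount of active protein are therefore different quantities, and only mRNA was measured.

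RNA from the livers of 27 male C57BL/6J mice was hybridized to Affymetrix Mouse Gene 1.1 ST arrays, 1 array for each mouse. All mice were 12 months old, had been on their diets since 9 weeks of age, and received the same mock gavage of 0.5% carboxymethyl cellulose after a 4 h fast, followed by a 6 h fast. There were 7 INT-fed mice, which alternated each week between 40% restriction of the control diet and free access to the medium fat diet and were killed in a medium fat week. There were 6 CR-fed mice on a continuous 30% restriction, given as a single daily portion of a restriction formula of the control diet, 7 MF-fed mice with free access to a diet with 25% of its energy from fat, and 7 C-fed mice with free access to the AIN-93W control diet. The amount of food and the timing of the daily meal changed together in the CR-fed mice and cannot be told apart. The INT-fed mice show the animals in their week of free feeding only.

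Values are log2 intensities, normalized by the authors, and a difference of 1 is a change of 2-fold. Array medians lay between 5.21 and 5.27. The interquartile range averaged 3.63 in the 16 arrays of replicates 1 to 4 and 3.72 in the 11 arrays of replicates 5 to 7. The arrays spanned 3.59 to 3.70 and 3.64 to 3.76, so they overlapped, and the labels name no batch. Results were also computed within these replicates, called array sets here. The summed intensity of 6 hepatocyte markers spanned 51370 to 55960 in INT-fed, 54350 to 57040 in CR-fed, 50850 to 56810 in MF-fed and 51820 to 57350 in C-fed mice. Of 8 adipocyte markers 6 had a value, and their summed intensity spanned 406.9 to 485.4 in INT-fed and 294 to 416.9 in CR-fed mice. It spanned 408.3 to 698.6 in MF-fed and 339.6 to 562.6 in C-fed mice. Adipoq and Lep averaged below the intensity of 20 in all 4 diets, and Retn in CR-fed mice only. Plin1, Fabp4 and Lipe averaged above it in all 4. The summed intensity of 7 macrophage markers spanned 2260 to 3588 in INT-fed, 3622 to 5356 in CR-fed, 2520 to 3988 in MF-fed and 3009 to 4687 in C-fed mice, and that of Alas2, the single erythroid marker with a value among the 4 listed, spanned 212.5 to 316 in CR-fed and 591.4 to 934 in C-fed mice. The hepatocyte, adipocyte and macrophage sums overlapped between CR-fed and C-fed mice, while Alas2 was separate. The macrophage sum of every CR-fed mouse was above that of every INT-fed mouse. The part of these levels in the differences below was not tested.

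The first comparison asked how lipogenic genes differed between continuously restricted mice and mice with free access to the control diet. Of the 10 genes, 8 were higher in CR-fed mice and none was lower at an adjusted p under 0.05 (limma, Benjamini-Hochberg adjustment over all genes tested). In the same comparison 8.46% of all genes tested were called higher and 9.05% lower, 17.5% in all. The median difference of the 10 genes was 0.91 log2 units, against a median of 0.0038 over all genes. In whole liver, a larger share of cells with a transcript and more transcript per cell cannot be told apart.

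**Figure D1:**
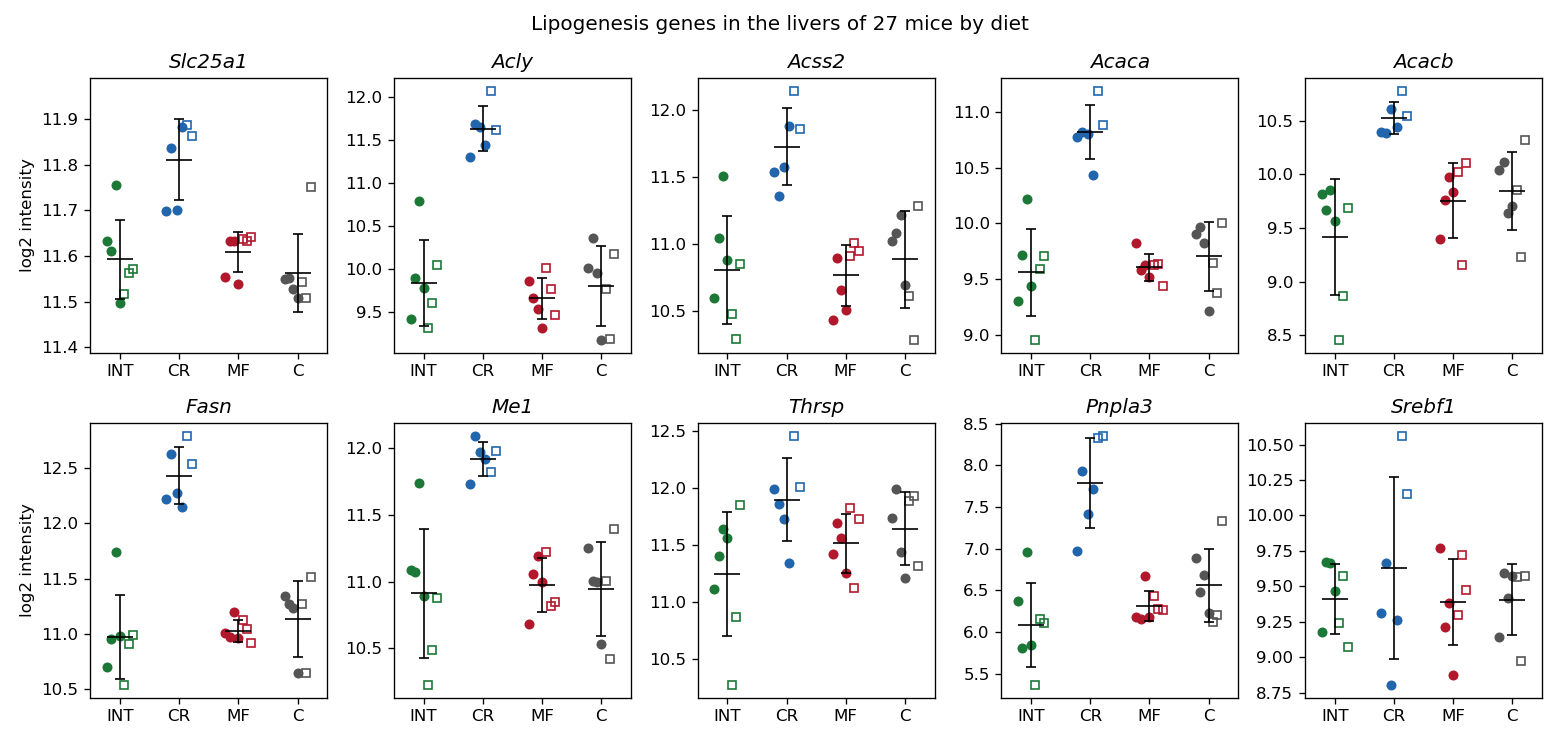
Log2 intensity (y axis) of the 10 lipogenic genes in each of the 27 mice by diet (x axis), with mice of replicates 1 to 4 as filled circles, mice of replicates 5 to 7 as open squares, and the mean ± SD as bars. The 6 CR-fed mice lie above all 21 other mice for Acly, Acaca, Acacb and Fasn, while for Srebf1 only 2 CR-fed mice do.

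The first step in the cytosol depends on citrate export and cleavage. Acly encodes ATP citrate lyase, which splits citrate into acetyl-CoA and oxaloacetate. Its lowest, median and highest log2 intensities were 11.30, 11.63 and 12.07 in CR-fed mice, against 9.17, 9.95 and 10.35 in C-fed mice. The groups were separate, and every CR-fed mouse was above every mouse of the other diets. Acly was 1.82 ± 0.20 log2 units higher (SE), a fold of 3.54 with a 95% confidence interval of 2.66 to 4.71, and ranked 52 of 13603 genes by p (adjusted p = 2.69e-07, limma). Slc25a1, the mitochondrial carrier that exports citrate, had 11.70, 11.85 and 11.89 in CR-fed mice, against 11.51, 11.54 and 11.75 in C-fed mice. These groups overlapped through C replicate 7. The difference of Slc25a1 was small, 0.25 ± 0.051 log2 units (SE) or 1.19-fold, and was called because this gene varied little between mice (adjusted p = 0.00093, limma).

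Acss2 encodes the cytosolic enzyme that makes acetyl-CoA from acetate, a source that does not need citrate. It had 11.35, 11.71 and 12.14 in CR-fed mice, against 10.28, 11.02 and 11.28 in C-fed mice. The lowest CR-fed mouse was above the highest C-fed mouse. The difference was 0.84 ± 0.17 log2 units (SE), 1.79-fold (adjusted p = 0.000913, limma).

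The carboxylases followed. Acaca encodes the cytosolic acetyl-CoA carboxylase that supplies malonyl-CoA for synthesis, and it had 10.43, 10.81 and 11.19 in CR-fed mice, against 9.21, 9.82 and 10.01 in C-fed mice. Acacb encodes the form at the outer mitochondrial membrane, whose malonyl-CoA restrains fatty acid import, and it had 10.39, 10.49 and 10.78 in CR-fed mice, against 9.23, 9.85 and 10.32 in C-fed mice. Neither gene had a CR-fed mouse within the range of the C-fed mice. The difference was 1.11 ± 0.15 log2 units for Acaca (SE, 2.17-fold, adjusted p = 5.52e-06) and 0.68 ± 0.20 for Acacb (SE, 1.60-fold, adjusted p = 0.0164, limma). The call for Acacb was lost without CR replicates 5 and 6 together (0.62, adjusted p = 0.0691). It was also lost under the methods' Tukey procedure when adjusted over genes (adjusted p = 0.137), but kept under that procedure without this adjustment. A second probe set of Acaca averaged 10.15 ± 0.30 in CR-fed and 8.97 ± 0.32 in C-fed mice (SD, n = 6 and 7).

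Fasn, the synthase itself, had 12.15, 12.40 and 12.79 in CR-fed mice, against 10.65, 11.27 and 11.52 in C-fed mice. The ranges of the groups did not meet. The difference was 1.30 ± 0.15 log2 units (SE), a fold of 2.46 with a 95% confidence interval of 1.98 to 3.05, and the gene ranked 70 by p (adjusted p = 7.54e-07, limma). Me1 encodes cytosolic malic enzyme, a source of NADPH, and had 11.73, 11.94 and 12.09 in CR-fed mice, against 10.42, 11.00 and 11.39 in C-fed mice. The difference of Me1 was 0.98 ± 0.17 log2 units (SE, 1.97-fold, adjusted p = 0.00017, limma), and a second probe set averaged 11.89 ± 0.13 in CR-fed and 10.91 ± 0.34 in C-fed mice (SD, n = 6 and 7).

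Pnpla3 encodes a lipid droplet protein with lipase activity and is a known target of SREBP-1c. It had 6.97, 7.82 and 8.35 in CR-fed mice, against 6.12, 6.48 and 7.33 in C-fed mice. Here the groups overlapped, since C replicate 7 was above CR replicate 1. The difference was 1.22 ± 0.22 log2 units (SE, 2.34-fold, adjusted p = 0.000276, limma).

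The other 2 genes were not called. Thrsp, also named Spot 14, encodes a small protein that responds to thyroid hormone and carbohydrate and promotes lipogenesis. It had 11.34, 11.93 and 12.46 in CR-fed mice, against 11.21, 11.74 and 11.99 in C-fed mice, and the difference was 0.25 log2 units with a 95% confidence interval of -0.16 to 0.67 (adjusted p = 0.431, limma). Srebf1 had 8.80, 9.49 and 10.56 in CR-fed mice, against 8.97, 9.57 and 9.60 in C-fed mice, so the CR-fed range enclosed the C-fed range. Its difference was 0.22 log2 units with an interval of -0.19 to 0.63 (adjusted p = 0.501, limma), and these intervals hold both a slight decrease and an increase above 1.5-fold.

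Counted without a model, 6 of the 10 genes had every CR-fed mouse above every C-fed mouse (Acly, Acaca, Acacb, Fasn, Me1 and Acss2), and 3.23% of all genes tested were separate in that direction. A called difference of at least 2-fold was found for Acly, Acaca, Fasn and Pnpla3, and for 0.588% of all genes tested in the same direction.

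The promoters of these genes are shown because 8 of the genes were called together in the CR-fed mice while Srebf1 was not. RefSeq sequences of build GRCm38.p6 were available for all 10 genes in 13 windows, each from 250 bases before to 50 bases after an annotated start. The motifs searched on both strands were CCAAT, bound by NF-Y, GGGCGG, the GC box bound by Sp proteins, CACGTG, the E-box bound by USF and ChREBP, and TCACNCCAC, a form of the sterol regulatory element bound by SREBP. In the lines below the capitals mark matches on either strand. The windows are those of Acly (chr11:100527951-100528250, minus strand), Fasn (chr11:120824498-120824797, minus strand), Pnpla3 (chr15:84167566-84167865, plus strand) and the start of Srebf1 that lies farthest upstream (chr11:60222532-60222831, minus strand).
Acly: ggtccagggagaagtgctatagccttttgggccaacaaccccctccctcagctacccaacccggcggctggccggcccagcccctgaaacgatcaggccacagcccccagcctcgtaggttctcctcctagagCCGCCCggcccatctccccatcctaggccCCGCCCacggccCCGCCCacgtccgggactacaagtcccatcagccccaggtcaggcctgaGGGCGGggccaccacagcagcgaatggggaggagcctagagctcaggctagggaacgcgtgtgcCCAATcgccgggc
Fasn: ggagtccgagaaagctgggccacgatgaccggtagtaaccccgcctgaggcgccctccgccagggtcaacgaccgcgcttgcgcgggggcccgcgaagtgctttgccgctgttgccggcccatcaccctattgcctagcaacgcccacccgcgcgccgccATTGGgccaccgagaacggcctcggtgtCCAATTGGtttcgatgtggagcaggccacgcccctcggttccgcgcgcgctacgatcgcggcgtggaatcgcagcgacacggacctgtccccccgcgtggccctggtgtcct
Pnpla3: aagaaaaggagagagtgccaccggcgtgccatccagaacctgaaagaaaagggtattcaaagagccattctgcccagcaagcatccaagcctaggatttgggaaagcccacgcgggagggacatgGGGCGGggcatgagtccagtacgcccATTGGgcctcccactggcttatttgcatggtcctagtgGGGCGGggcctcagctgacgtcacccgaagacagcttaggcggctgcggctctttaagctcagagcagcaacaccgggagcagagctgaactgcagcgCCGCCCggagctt
Srebf1: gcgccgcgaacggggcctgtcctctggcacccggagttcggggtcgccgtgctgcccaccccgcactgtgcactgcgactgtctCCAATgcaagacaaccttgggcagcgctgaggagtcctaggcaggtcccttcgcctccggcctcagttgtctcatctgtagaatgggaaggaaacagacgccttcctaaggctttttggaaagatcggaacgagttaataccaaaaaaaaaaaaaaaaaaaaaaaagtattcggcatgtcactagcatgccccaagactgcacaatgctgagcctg
The Fasn window held 3 matches to CCAAT, of which 2 overlap in the palindrome CCAATTGG, and the Acly, Pnpla3 and Srebf1 windows held 1 each. GGGCGG matched 4 times in the Acly window, 3 times in the Pnpla3 window and not in the windows shown for Fasn and Srebf1. The other 2 windows of Srebf1, at starts farther downstream, held 3 and 2 such matches. CCAAT was present in 10 of the 13 windows, and in 37.4% of 32851 windows of the same length over all genes. GGGCGG was present in 7 of the 13 windows and in 35.7% of all windows. CACGTG was found in the Slc25a1 window alone, and in 7.15% of all windows. TCACNCCAC was found in none of the 13 and in 1.24% of all windows. These are matches of letters, and binding was not measured.

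CR-fed mice were next set against MF-fed mice, which ate more fat without restriction. Again 8 of the 10 genes were higher in CR-fed mice and none lower, where 8.57% of all genes tested were called higher and 11.2% lower, 19.8% in all (limma, adjusted p under 0.05). The median difference was 0.95 log2 units, against -0.0024 over all genes. All 8 had every CR-fed mouse above every MF-fed mouse, and 2.9% of all genes tested were separate in that direction. The CR-fed mice are the same animals in both comparisons, so the 2 counts are not independent.

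Acly had 11.30, 11.63 and 12.07 in CR-fed mice, against 9.31, 9.66 and 10.01 in MF-fed mice, and was 1.97 ± 0.20 log2 units higher (SE, 3.91-fold, adjusted p = 9.35e-08, limma). Fasn had 12.15, 12.40 and 12.79 in CR-fed mice, against 10.92, 11.01 and 11.20 in MF-fed mice, a narrow range, and was 1.40 ± 0.15 log2 units higher (SE, 2.64-fold, adjusted p = 2.36e-07, limma). Pnpla3, whose MF-fed mice spanned only 6.16 to 6.67, was 1.48 ± 0.22 log2 units higher (SE, 2.78-fold, adjusted p = 2.58e-05, limma). Acaca, Acss2, Me1, Acacb and Slc25a1 were 1.21, 0.96, 0.95, 0.77 and 0.20 log2 units higher, with adjusted p between 1.54e-06 and 0.00597. Thrsp differed by 0.38 log2 units (95% confidence interval -0.03 to 0.80) and Srebf1 by 0.24 (-0.17 to 0.64), and neither passed the test. Within replicates 5 to 7, with 2 CR-fed and 3 MF-fed mice, 4 of the 10 genes were called (Acly, Acaca, Fasn and Pnpla3), as were 331 of all 13603 genes, against 2690 in all mice.

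The weekly alternating diet includes restriction, and INT against CR asks how livers of alternating mice in a free-feeding week compared with livers under lasting restriction. Of the 10 genes, 9 were lower in INT-fed mice, where 6.62% of all genes tested were called lower and 8.37% higher, 15% in all (limma, adjusted p under 0.05). The median difference was -1.06 log2 units, against -0.0009 over all genes. Acly, Acaca, Acacb, Fasn and Pnpla3 had every INT-fed mouse below every CR-fed mouse, as had 2.77% of all genes tested.

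**Figure D2:**
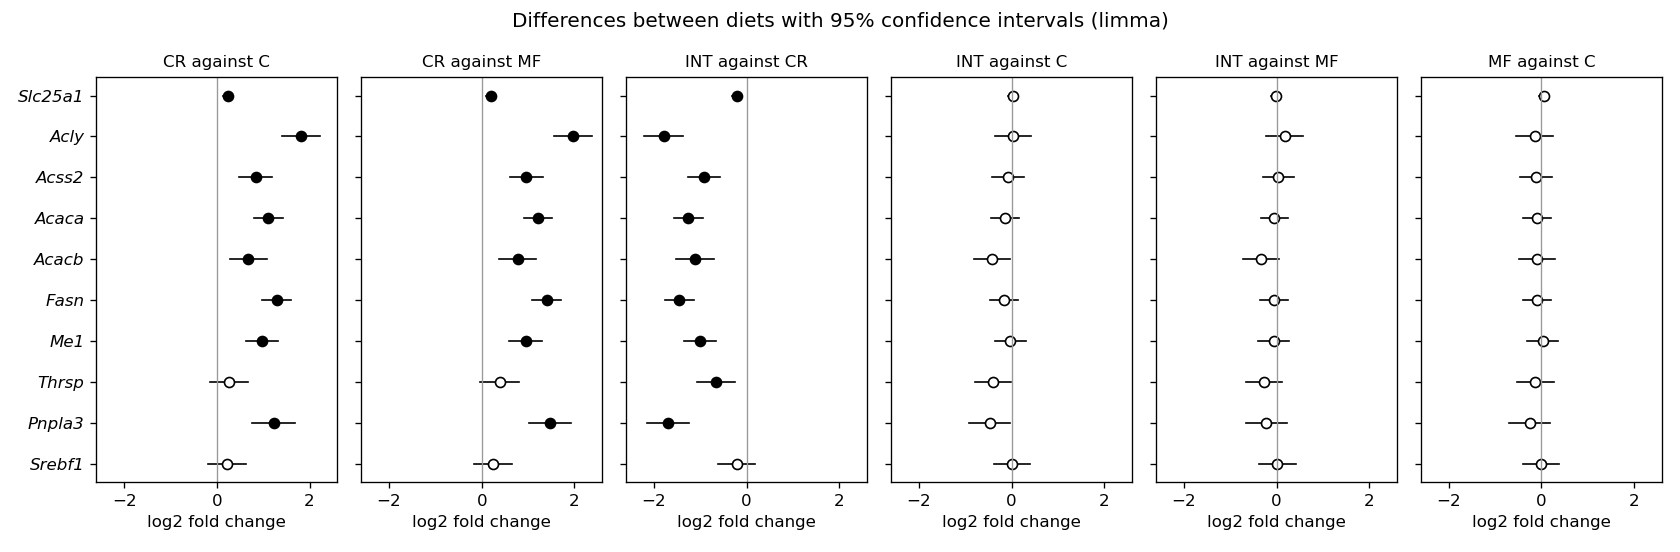
Log2 fold change (x axis) of the 10 lipogenic genes (y axis) in the 6 comparisons, with 95% confidence intervals from limma and filled points for an adjusted p under 0.05. Filled points number 8 in CR against C, 8 in CR against MF and 9 in INT against CR, and there are none in the comparisons without CR-fed mice.

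Acly had 9.31, 9.78 and 10.79 in INT-fed mice, against 11.30, 11.63 and 12.07 in CR-fed mice, and fell by 1.79 log2 units (SE 0.20, adjusted p = 3.72e-07, limma). Fasn had 10.54, 10.96 and 11.74 in INT-fed mice, against 12.15, 12.40 and 12.79 in CR-fed mice, and fell by 1.46 (SE 0.15, adjusted p = 1.32e-07). Pnpla3 had 5.36, 6.11 and 6.95 in INT-fed mice, against 6.97, 7.82 and 8.35 in CR-fed mice, and fell by 1.70 (SE 0.22, adjusted p = 4.24e-06). The highest INT-fed mouse was replicate 3 for each of these 3 genes, and for Pnpla3 it lay just below CR replicate 1, at 6.97.

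Acacb, which was among the smaller differences between CR and C, fell by 1.11 log2 units in INT-fed mice (SE 0.20, adjusted p = 0.000233, limma), with 8.46, 9.67 and 9.85 in INT-fed mice against 10.39, 10.49 and 10.78 in CR-fed mice. Acaca, Me1, Acss2 and Slc25a1 differed by -1.26, -1.01, -0.92 and -0.22 log2 units, with adjusted p between 9.7e-07 and 0.00347. The call for Slc25a1 was lost within replicates 1 to 4 (adjusted p = 0.201) and within replicates 5 to 7 (adjusted p = 0.1). Thrsp was called in this comparison alone, at -0.65 (SE 0.20, adjusted p = 0.0262), with 10.27, 11.41 and 11.85 in INT-fed mice against 11.34, 11.93 and 12.46 in CR-fed mice. Its groups overlapped, and the call was lost in 9 alternatives, with adjusted p of 0.0649 without INT replicate 5, 0.0603 without INT replicate 6, 0.0723 without CR replicate 5 and 0.0526 without CR replicate 6. Srebf1 differed by -0.22 log2 units (95% confidence interval -0.62 to 0.19, adjusted p = 0.518).

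The remaining comparisons were among mice that were all killed in a week of free feeding. How many days of it the INT-fed mice had had is not stated. None of the 10 genes was called in any of these comparisons (limma), as was none of all genes tested (0%). At an unadjusted p under 0.05 3 of the 10 were lower in INT against C, where 2.83% of all genes were lower and 6.78% differed in either direction. None of the 10 passed that limit in INT against MF (10.9% of all genes) or in MF against C (3.41%). Acacb averaged 9.41 ± 0.54 in INT-fed and 9.84 ± 0.36 in C-fed mice (SD, n = 7 each). The difference of Acacb was -0.43 log2 units (adjusted p = 0.697, limma). Pnpla3 differed by -0.48 (adjusted p = 0.709) and Thrsp by -0.40 (adjusted p = 0.73). The ranges of INT- and C-fed mice overlapped for all 10 genes.

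The precision of these comparisons is given by the intervals. For Fasn, INT-fed mice differed from C-fed mice by -0.16 log2 units (95% confidence interval -0.46 to 0.14) and from MF-fed mice by -0.06 (-0.36 to 0.24), and MF-fed mice differed from C-fed mice by -0.10 (-0.40 to 0.20). For Acly the 3 differences were 0.03 (-0.36 to 0.43), 0.18 (-0.22 to 0.57) and -0.14 (-0.54 to 0.25). The ends of these 6 intervals farthest from 0 were -0.54 and 0.57 log2 units. For Srebf1, INT-fed mice averaged 9.41 ± 0.25, MF-fed mice 9.39 ± 0.31 and C-fed mice 9.41 ± 0.25 (SD, n = 7 each), and the largest difference among them was 0.02 log2 units.

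Srebf1 had the widest spread of the 10 genes among CR-fed mice on the log2 scale. The 6 CR-fed mice, replicates 1 to 6, had 9.32, 9.66, 8.80, 9.27, 10.56 and 10.15. CR replicates 5 and 6 were above all 21 mice of the other diets, whereas CR replicate 3 was below all of them, and the highest exceeded the lowest by 3.38-fold. The group averaged 9.63 ± 0.64 (SD, n = 6). In INT-fed mice the range was 9.07 to 9.67, in MF-fed mice 8.88 to 9.77 and in C-fed mice 8.97 to 9.60, so these 3 diets differed by less than their spread.

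The 2 high mice are also the only CR-fed mice of replicates 5 to 7. Srebf1 differed between CR and C by -0.17 within replicates 1 to 4 (adjusted p = 0.649) and by 0.98 within replicates 5 to 7 (adjusted p = 0.0355, 2 CR-fed mice), and between INT and CR by 0.23 (adjusted p = 0.518) and -1.06 (adjusted p = 0.0305). The test of the difference between the sets gave 1.16 for CR against C and -1.30 for INT against CR. The adjusted p of these differences in limma was 0.684 and 0.71, and no gene was called. Without CR replicates 5 and 6 the direction turned, to -0.15 for CR against C (adjusted p = 0.605) and 0.15 for INT against CR (adjusted p = 0.604). Without them 7 of the 10 genes stayed called higher in CR against C, 8 in CR against MF and 8 lower in INT against CR. Of all 13603 genes tested, these fits called 2117, 2451 and 1803 in either direction.

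**Figure D3:**
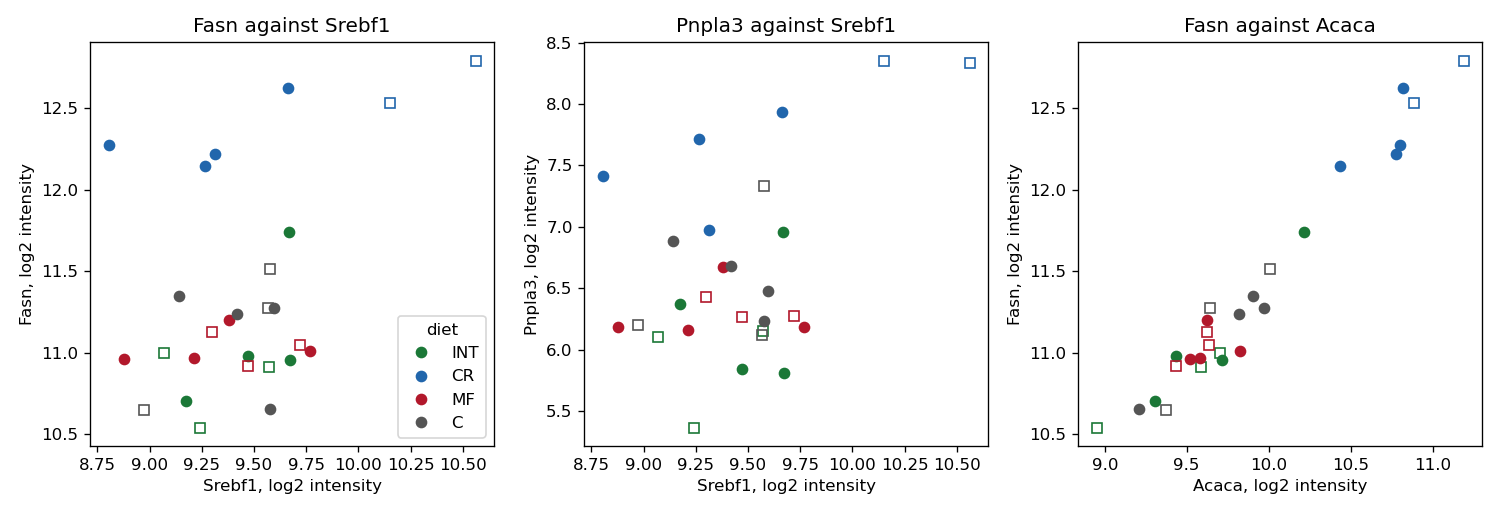
Log2 intensity of Fasn and of Pnpla3 (y axes) against that of Srebf1 (x axis), and of Fasn against Acaca, in 27 mice coloured by diet, with replicates 1 to 4 as filled circles and replicates 5 to 7 as open squares. CR-fed mice with Srebf1 between 8.80 and 9.66, within or below the range of the other diets, had Fasn above all mice of the other diets.

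In the 4 CR-fed mice of replicates 1 to 4, high levels of the enzymes stood beside Srebf1 levels within or below the range of the other diets. CR replicate 3 had the lowest Srebf1 of all 27 mice (8.80), and its Fasn was 12.27, against a highest value of 11.74 among the 21 other mice. CR replicate 4 had Srebf1 at 9.27 and Acly at 11.44, against a highest value of 10.79 in the other diets. The array cannot separate the 2 forms of Srebf1 mRNA, 1a and 1c, since a single probe set measured the gene.

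Relations among the genes were examined over the 21 mice on the INT, MF and C diets, leaving out the CR-fed mice, which stood apart. Each of the 45 pairs was tested with Pearson's r and Spearman's rho by permutation (2-sided, 100000 resamples) with Benjamini-Hochberg adjustment over the 45 pairs. By r, 28 pairs passed an adjusted p under 0.05, and by rho 18 did, and r was positive in 44. Fasn and Acaca were the closest pair, with r = 0.91 and rho = 0.88 (permutation p = 1e-05 for each, the smallest that these resamples can give, and adjusted permutation p = 0.000112 and 0.00015). Without the 2 mice farthest from the median of Acaca, r of this pair was 0.86. It was 0.92 within replicates 1 to 4 and 0.90 within replicates 5 to 7. Acly gave r = 0.88 (rho = 0.89) with Acaca and r = 0.86 (rho = 0.82) with Fasn, and Fasn gave r = 0.84 (rho = 0.70) with Me1.

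**Figure D4:**
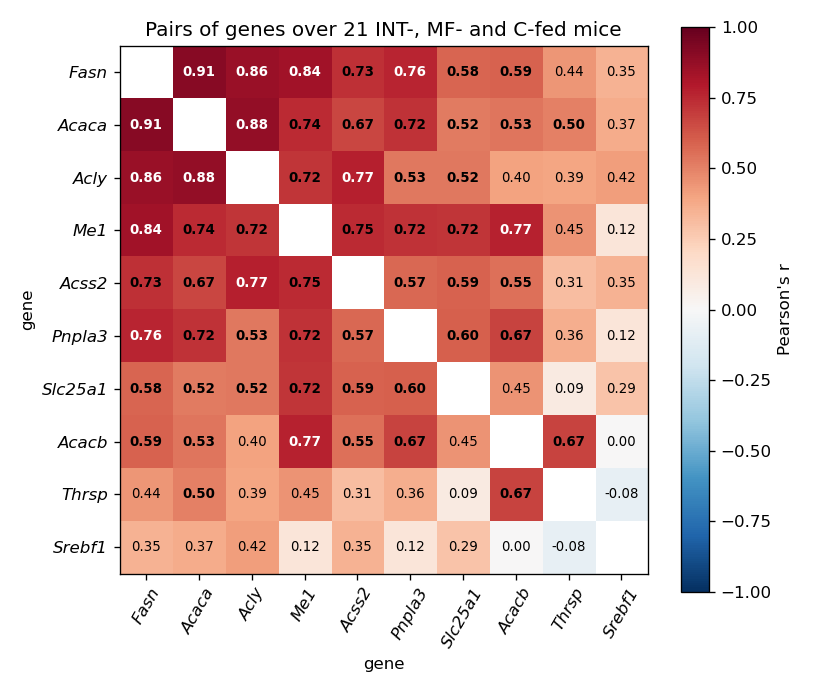
Pearson's r (colour and number) between the log2 intensities of each pair of the 10 genes (both axes) over the 21 INT-, MF- and C-fed mice, in bold where the adjusted permutation p is under 0.05. Fasn, Acaca, Acly and Me1 form the closest block, with r between 0.72 and 0.91, and no pair with Srebf1 is in bold. Thrsp is in bold with Acacb and Acaca only.

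Srebf1, and in most pairs Thrsp, stood outside these relations. None of the 9 pairs with Srebf1 passed, with r between -0.08 (Thrsp) and 0.42 (Acly). Of the 36 pairs without Srebf1, 28 passed by r, with a median r of 0.60. Whether the pairs with Srebf1 differ from the other pairs was not tested. Thrsp was much alike, since it passed by rho with no gene and by r with Acacb and Acaca alone. For these, r was 0.67 (adjusted permutation p = 0.00386) and 0.50 (adjusted permutation p = 0.0347). Their rho was 0.46 and 0.32 (adjusted permutation p = 0.0792 and 0.196). Without the 2 mice farthest from the median of Acacb, or of Acaca, r was 0.22 for either pair. Within replicates 1 to 4 r was 0.49 with Acacb and 0.67 with Acaca. Within replicates 5 to 7 it was 0.72 and 0.46, and neither pair passed in either set. The number of pairs that passed was 13 when each pair was tested without the 2 mice farthest from the median of its first gene. It was 8 within replicates 1 to 4 (12 mice) and 15 within replicates 5 to 7 (9 mice, exact test). After each diet's mean was subtracted it was 32. Within the 6 CR-fed mice, r with Srebf1 was 0.85 for Fasn, 0.81 for Pnpla3, 0.71 for Acaca and 0.66 for Acly. It was 0.49 for Acacb and -0.09 for Me1. None of these passed (adjusted permutation p = 0.304 for Fasn), but with 6 mice even a high r can fail to pass an exact test.

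Genes outside the set whose levels followed the mean standardised level of the 10 genes were ranked by r over the 27 mice, as a description. Elovl6, the elongase that extends palmitate to stearate, was closest (r = 0.96 over 27 mice and 0.90 over the 21 mice without CR), and it averaged 11.21 in INT-fed, 12.57 in CR-fed, 11.29 in MF-fed and 11.51 in C-fed mice. Chrna4, a nicotinic acetylcholine receptor subunit, came next (0.95 and 0.87). Dlat, a subunit of pyruvate dehydrogenase, and Tlcd1, a protein of membrane lipid composition, followed with 0.93 and 0.92. The others of the first 10 were Spag9, Pmvk of the mevalonate pathway, Pdk1, a kinase of pyruvate dehydrogenase, Gpam, the acyltransferase that begins triglyceride synthesis, Enpep and Rdh11, with r between 0.89 and 0.92. Among the members, whose own values enter the mean, r was 0.97 for Fasn, 0.66 for Thrsp and 0.50 for Srebf1 over 27 mice and 0.91, 0.60 and 0.36 over the 21, and 1016 genes outside the set had a higher r than Srebf1.

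At the opposite end, Eci2, an enoyl-CoA isomerase of fatty acid oxidation, had r = -0.91, followed by Gna12 (-0.90), Mbl1 (-0.87), Chrna2 (-0.87) and Pla2g12b (-0.87). Over the 21 mice without CR these were -0.61, -0.66, -0.35, -0.40 and -0.64. Chrna2 averaged 7.18 in INT-fed, 5.44 in CR-fed, 6.94 in MF-fed and 6.94 in C-fed mice, and Chrna4 averaged 7.13, 9.84, 7.30 and 7.79 in the same order of diets. All genes of a mouse were read on the same array and normalized together. The r over 27 mice includes the difference between the CR-fed mice and the rest.

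The neighbours of the route were described by 4 lists. Of the regulators of lipogenic transcription, 14 of 16 had a value (Mbtps2 and Nr1h2 were not analysed here), and 2 of the 14 were higher and none lower in CR against C, where 8.46% of all genes tested were called higher and 9.05% lower. The list median was 0.04 log2 units. Insig1, which holds the SREBP precursor in the endoplasmic reticulum and is itself induced by nuclear SREBP, averaged 11.46 in CR-fed and 10.17 in C-fed mice and was 1.29 ± 0.21 log2 units higher (SE, adjusted p = 8.01e-05, limma). Mid1ip1, which encodes a relative of Spot 14 that activates acetyl-CoA carboxylase, was 0.89 ± 0.18 higher (SE, adjusted p = 0.000844). Mlxipl, which encodes ChREBP, differed by 0.21 (95% confidence interval 0.02 to 0.40, adjusted p = 0.124), Srebf2, the gene of the cholesterol branch, by 0.28 (adjusted p = 0.0513) and Nr1h3, which encodes LXR alpha, by -0.06 (adjusted p = 0.628). In CR against MF, 4 of the 14 were higher, with Insig1 at 1.21 and Mid1ip1 at 0.87, and 1 was lower, Insig2 at -0.75 (8.57% and 11.2% of all genes). In INT against CR, Insig1 was the single gene called, lower at -0.92 (adjusted p = 0.00322), where 6.62% of all genes were lower and 8.37% higher.

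Desaturases and elongation enzymes act on the palmitate that the route makes, and all 14 were tested. In CR against C, 1 of the 14 was higher and 3 were lower, against 8.46% and 9.05% of all genes tested. Elovl6 rose by 1.05 ± 0.16 log2 units (SE, adjusted p = 3.14e-05, limma), with every CR-fed mouse above every C-fed mouse. Elovl3, an elongase of longer saturated and monounsaturated chains whose liver level is known to follow the clock, averaged 7.32 in CR-fed and 10.78 in C-fed mice and fell by 3.46 log2 units (SE 0.36, adjusted p = 1.31e-07). Hsd17b12 and Hacd3, of the elongation cycle, fell by 0.44 and 0.24. Scd1, the stearoyl-CoA desaturase, averaged 13.62 in CR-fed and 13.54 in C-fed mice, a difference of 0.07 (95% confidence interval -0.03 to 0.18, adjusted p = 0.35). Alb, the albumin gene, averaged 13.67 and 13.66 in the same mice. Whether signals this high were near the upper limit of the array, where differences shrink, was not tested. Scd1 differed by 0.13 in CR against MF (adjusted p = 0.0785) and was called lower in INT against CR, at -0.16 (adjusted p = 0.0311, limma). In CR against MF 3 were higher and 3 lower (8.57% and 11.2% of all genes), and in INT against CR 3 were higher and 4 lower (8.37% and 6.62% of all genes), with Elovl3 at 3.43 and Elovl6 at -1.36. The list median was -0.04 in CR against C, -0.04 in CR against MF and -0.10 in INT against CR.

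Of the enzymes that feed carbon and NADPH into the route, 10 of 13 were analysed here. In CR against C, 4 of the 10 were higher and 1 was lower, compared with 8.46% and 9.05% of all genes, and the list median was 0.13 log2 units. Pgd, the phosphogluconate dehydrogenase that yields NADPH, averaged 10.01 in CR-fed and 9.10 in C-fed mice and was 0.91 ± 0.16 higher (SE, adjusted p = 0.000229, limma), with separate groups. Pklr, the liver pyruvate kinase, was 0.47 higher (adjusted p = 0.00227), Tkt, transketolase, 0.43 (adjusted p = 0.00124), and Pcx, pyruvate carboxylase, which also serves gluconeogenesis, fell by 0.23 (adjusted p = 0.0194). In CR against MF 3 were higher and 1 was lower (8.57% and 11.2% of all genes). In INT against CR 4 were lower, with Pgd at -1.17, Pklr at -0.58 and Tkt at -0.57, and 1 was higher, Pcx at 0.24 (6.62% and 8.37% of all genes).

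**Figure D5:**
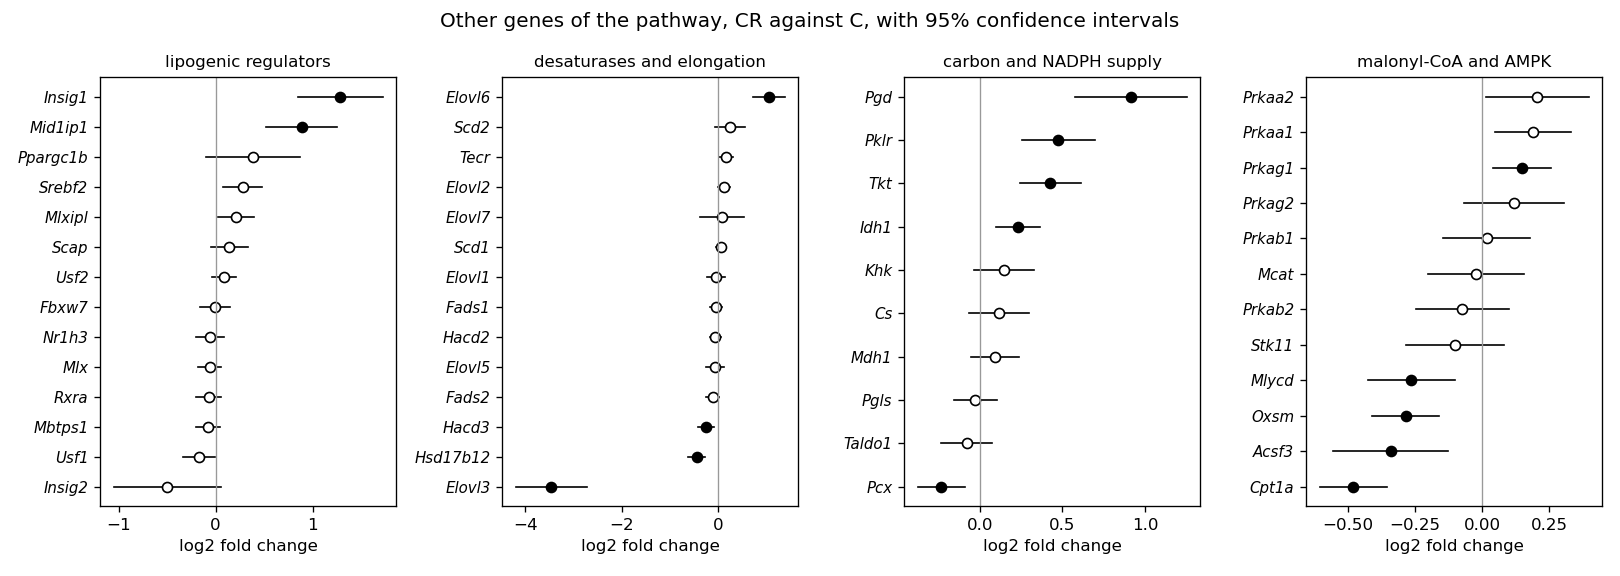
Log2 fold change of CR against C (x axis) with 95% confidence intervals for the tested genes (y axis) of the 4 lists, with filled points for an adjusted p under 0.05 (limma). Insig1, Elovl6 and Pgd lead the increases, and Elovl3 at -3.46 lies far below all others.

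The last list holds genes that handle malonyl-CoA and the subunits of AMPK, the kinase that inactivates acetyl-CoA carboxylase. Of 12 genes, 1 was higher and 4 were lower in CR against C (8.46% and 9.05% of all genes), with a median of -0.05 log2 units. Cpt1a, the carnitine palmitoyltransferase that malonyl-CoA inhibits, averaged 11.81 in CR-fed and 12.29 in C-fed mice and fell by 0.48 log2 units (SE 0.06, adjusted p = 2.71e-06, limma), with separate groups. Mlycd, the malonyl-CoA decarboxylase, fell by 0.26 (adjusted p = 0.0194), Oxsm, a mitochondrial ketoacyl synthase, by 0.28 (adjusted p = 0.00148) and Acsf3, the mitochondrial malonyl-CoA synthetase, by 0.34 (adjusted p = 0.0234). In CR against MF 3 were lower and none higher (11.2% and 8.57% of all genes). In INT against CR 3 were higher, among them Cpt1a at 0.38 (adjusted p = 7.35e-05), and 1 was lower (8.37% and 6.62% of all genes). No gene of the 4 lists was called in INT against C, INT against MF or MF against C (limma).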

How the data were processed

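Livers of 27 mice were measured on 1 array each, and groups were taken from the diet named in the sample labels. The deposited values are log2 intensities, which the authors obtained by robust multiarray average (RMA) over all arrays. Although the methods name probe sets defined by Entrez identifiers, the table held 35556 of the maker's own. The platform annotation tied 21218 of them to a single gene. Those with several genes (1881) or none (12457) were left out, and where a gene had more than 1 probe set the brightest on average stood for it, which gave 18820 genes. Of the 10 genes described, 8 had a single probe set, and Acaca and Me1 had 2. The intensity filter of the methods (more than 20, on 5 or more arrays) left 13603 genes.

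Diets were compared in R 4.3.3 with the functions lmFit, contrasts.fit and eBayes of limma 3.58.1, fitted on all 27 arrays. P-values were adjusted by Benjamini-Hochberg over all genes tested, and 0.05 was the limit for a call. No test across all genes is named in the methods. Their Tukey procedure after a one-way analysis was run as an alternative, with and without adjustment over genes. Relations used Python 3.11.15 with scipy 1.17.1. The code was tested on simulated data. Arrays carry no read depth, and the number of mice limits the precision.

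The genes and lists were chosen with earlier results of these data known. The named genes are the 10 members, up to 4 called genes of largest change in each list and comparison, and the 10 genes most and 5 genes least like the mean of the members, while Scd1, Mlxipl, Srebf2 and Nr1h3 were added for their roles after their values were seen. The marker lists cover hepatocytes, adipocytes, macrophages, stellate cells, cholangiocytes, exocrine pancreas and erythroid cells. Between CR and C, 1 of 6 hepatocyte, 2 of 7 macrophage and 2 of 4 cholangiocyte markers were higher (8.46% of all genes). Lower were 1 of 6 hepatocyte, 1 of 4 adipocyte, 1 of 6 stellate and 1 of 1 erythroid markers (9.05% of all genes). The 1 pancreas marker tested was not called.

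The alternatives were other intensity minimums, the mean of all probe sets of a gene, centring on the median, loess between arrays, robust variances with a trend, weights for arrays, only the diets compared, blocks by replicate number or array set, the 2 array sets separately, and each mouse left out. The test of array set by diet and the fit without CR replicates 5 and 6 were added after the data had been seen. Over the 39 pairs of mice with the same replicate number, r of their deviations from the diet means lay between -0.25 and 0.30, and 17 were above 0.1. Since not every pair was above 0.1, the numbers were not taken to pair the mice.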

Additional observations from a re-analysis of the deposited data

Results flagged for a closer look

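Each gene was examined in each diet, 40 groups in all, for a mouse far from the others, and chance alone gives about 1 in 20 groups. There were 2 such values. Fasn in INT replicate 3 was 11.74, and the next INT-fed mouse was at 11.00. Slc25a1 in C replicate 7 was 11.75, and the next C-fed mouse was at 11.55.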

How the results depend on the processing

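The counts of the 10 genes called in the 6 comparisons stayed within 1.5 times their reported value in all alternatives but CR against MF within replicates 5 to 7, where 4 were called. With each mouse left out the counts spanned 8 to 8 in CR against C, 8 to 8 in CR against MF and 8 to 9 in INT against CR. In these 3 comparisons the same fits called 1919 to 2506, 2232 to 2761 and 1674 to 2175 of all genes. The counts spanned 0 to 0 in INT against C, INT against MF and MF against C. With the replicate number as a block the counts of the 10 genes were 8, 8, 9, 0, 0 and 0, and this block changed no member's call. The number of related pairs, reported as 28, was 13 without the 2 farthest mice, 8 within replicates 1 to 4 and 15 within replicates 5 to 7. It was 0 within the 6 CR-fed mice, where even a high r can fail to pass an exact test. That 0 therefore does not tell whether the genes were related in the CR-fed mice. Over all values of single genes, 61 changed sign among differences that were not called either way, and 23 lost and 2 gained a call. Both gains were Srebf1 within replicates 5 to 7. Losses were Acacb, Me1, Slc25a1, Acss2 and Thrsp only. Counts over all genes tested moved more. CR against C gave 2382 as reported, 1226 within replicates 1 to 4 and 497 within replicates 5 to 7. By the methods' Tukey procedure, adjusted over genes, it gave 1231. CR against MF gave 2690, against 331 within replicates 5 to 7 and 1455 by the Tukey procedure. INT against CR gave 2039, against 1038 and 347 within the sets and 1055 by the Tukey procedure. The Tukey procedure without adjustment over genes gave 223 in INT against C, 356 in INT against MF and 80 in MF against C, where limma gave 0. INT against MF gave 3 with array weights, 29 without MF replicate 6, 2 without C replicate 5 and 1 without C replicate 7, and MF against C gave 1 within replicates 1 to 4. Smaller sets hold fewer mice, and the other causes were not tested.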

Other observations

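Variation between mice of the same diet had a pattern of its own. The SD of INT-fed mice exceeded that of MF-fed mice for 9 of the 10 genes, Srebf1 being the exception, and for 42.8% of all genes tested, and the median ratio of the SDs was 2.06 over the 10 genes and 0.91 over all genes. Against C-fed mice the SD of INT-fed mice was also higher for 9 of the 10 genes (46.4% of all genes), but with a median ratio of 1.12. The SD of CR-fed mice exceeded that of MF-fed mice for 8 (45.1% of all genes), with a median ratio of 1.71. The SD of MF-fed mice exceeded that of C-fed mice for 1 of the 10 genes, Srebf1, and for 53.9% of all genes. No test was made of these ratios. INT replicate 3 was the highest INT-fed mouse for 8 of the 10 genes, and INT replicate 5 the lowest for 7, among them Fasn at 11.74 and 10.54. C replicate 7 was the highest C-fed mouse for 7 genes and C replicate 6 the lowest for 5. CR replicate 5 was the highest CR-fed mouse for 8 genes. Since the genes rise and fall together between mice, these counts are not independent of one another.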
